A study of Homo sapiens with 6 samples.

Results

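The genes described here are 46 genes of fatty acid and glycerolipid metabolism, listed by symbol and covering fatty acid synthesis, desaturation, elongation, activation to acyl-CoA, assembly into glycerolipids, storage and oxidation. They were measured in HCT116, an established human colorectal carcinoma cell line, after 48 h with 40 µM NU7441, a small molecule known to inhibit the kinase DNA-PK, or with 0.1% (v/v) dimethyl sulfoxide (DMSO), the vehicle. Each group had 3 samples, and total RNA of each was hybridised to its own Illumina bead array. Whether samples of 1 group were separate cultures is not stated in the labels, so the p-values rest on the spread among arrays, which may be technical. A level here is a normalised log2 intensity of bulk RNA, in which fewer cells of a kind and less RNA per cell cannot be told apart, and levels are not compared between genes because probes differ in brightness. A change is NU7441 over vehicle as a log2 fold change, given with the fit's standard error (SE). Every adjusted p-value comes from limma, with the Benjamini-Hochberg procedure applied to all 9342 genes tested (or to all kept probes, where that is said) and a threshold of 0.05.

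Fatty acids are built from acetyl-CoA, which acetyl-CoA carboxylase turns into malonyl-CoA and fatty acid synthase assembles into palmitate with reducing power from NADPH. Palmitate is then lengthened and desaturated in the endoplasmic reticulum, activated to acyl-CoA and esterified stepwise to glycerol, and the surplus is stored as triacylglycerol in lipid droplets or burned by mitochondrial beta-oxidation. Many of the synthetic genes are known targets of SREBP-1, a membrane-bound transcription factor encoded by SREBF1, and colorectal carcinomas commonly make fatty acids de novo.

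Of the 46 genes, 38 were tested. No probe carries the name of ACSL3, AGPAT3 or LPIN3. For ACSS1, FADS2, ELOVL7, DGAT2 and PNPLA3 no probe was detected (detection p below 0.05) on all 3 arrays of a group, and these were not tested. FADS3, AGPAT4 and LPIN2 entered the test through the NU7441 arrays alone, so counts that hold them lean on that filter. FADS3 and AGPAT4 were detected on 0 of 3 vehicle arrays, and LPIN2 on 2 of 3. FADS2 was detected on 1 of 3 NU7441 arrays and 0 of 3 vehicle arrays, ELOVL7 on 2 and 1, and DGAT2 on 1 and 1, while ACSS1 and PNPLA3 were detected on 0 of 6 arrays. Over all genes tested, 38.5% passed the threshold, 18.7% higher and 19.7% lower. Higher genes made up 48.6% of all calls, or 35.9% with 75th percentile scaling of the arrays. The arrays detected 16593 to 17788 of 47323 probes, with median signals of 72.8 to 75.3, and array number limits the precision. The first principal component, 70.9% of the variance, separated the groups, and the second, 12%, spread the NU7441 arrays (12.58, 3.7 and -15.12). Of 12 colorectal epithelial markers with a probe, 6 were detected on all 6 arrays (EPCAM, CDH1, KRT8, KRT18, KRT19 and CDX2), and VIL1, CDX1 and CEACAM5 on none. Of 12 markers of other cell types 3 were detected on all 6 arrays (ACTA2, ALB and ADIPOQ) and 6 on none, PTPRC, PECAM1 and DCN among them. ACTA2 rose by 0.76 (limma adjusted p = 0.000194) and the epithelial marker CDH1 by 0.52 (limma adjusted p = 0.00394). The other tested markers, among them COL1A1, detected on 5 arrays, did not pass the threshold. The part of ACTA2 and CDH1 in the results below was not tested.

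Of the 38 tested genes 19 rose with NU7441 and 4 fell, against 18.7% and 19.7% of all genes. The median change was 0.31, against 0.00 over all genes tested. The list was chosen with earlier results of these data known, so these comparisons with all genes are descriptive only. LPIN1, ACSS2, ME1, ACADVL and SCD were among the genes that rose, with PNPLA2, and ACSL5, PLIN2, AGPAT5 and FABP5 were the genes that fell. The NU7441 arrays lay entirely above the vehicle arrays in 21 genes and entirely below them in 4. Of all genes 24.2% and 25.6% did so, 49.9% together. FADS3 and AGPAT4 are among the 21, and FADS3 is among the 19. Both were kept through the NU7441 arrays alone, and no vehicle array detected them. The 15 genes not past the threshold ranged between -0.27 and 0.32, with 11 above 0 and 4 below. On the 3 NU7441 arrays the median deviation of the 38 genes from their vehicle means was 0.38, 0.27 and 0.29, so each array showed the shift. Leaving out vehicle replicate 1 gave 12 higher genes, leaving out vehicle replicate 3 gave 11, and an adjusted p below 0.01 gave 12. Over all genes these settings gave 14.6%, 14.1% and 11.3% higher. The median change of the 38 genes was 0.14 without background correction, 0.16 in the authors' deposited log2 table and 0.19 with a normexp offset of 50. Without background correction SREBF1, ACACB, FADS3 and ELOVL1 were not past the threshold, and the changes of LPIN1, PNPLA2, DGAT1, ACSL5 and PLIN2 were 0.73, 0.35, 0.25, -0.64 and -0.60.

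**Figure D1:**
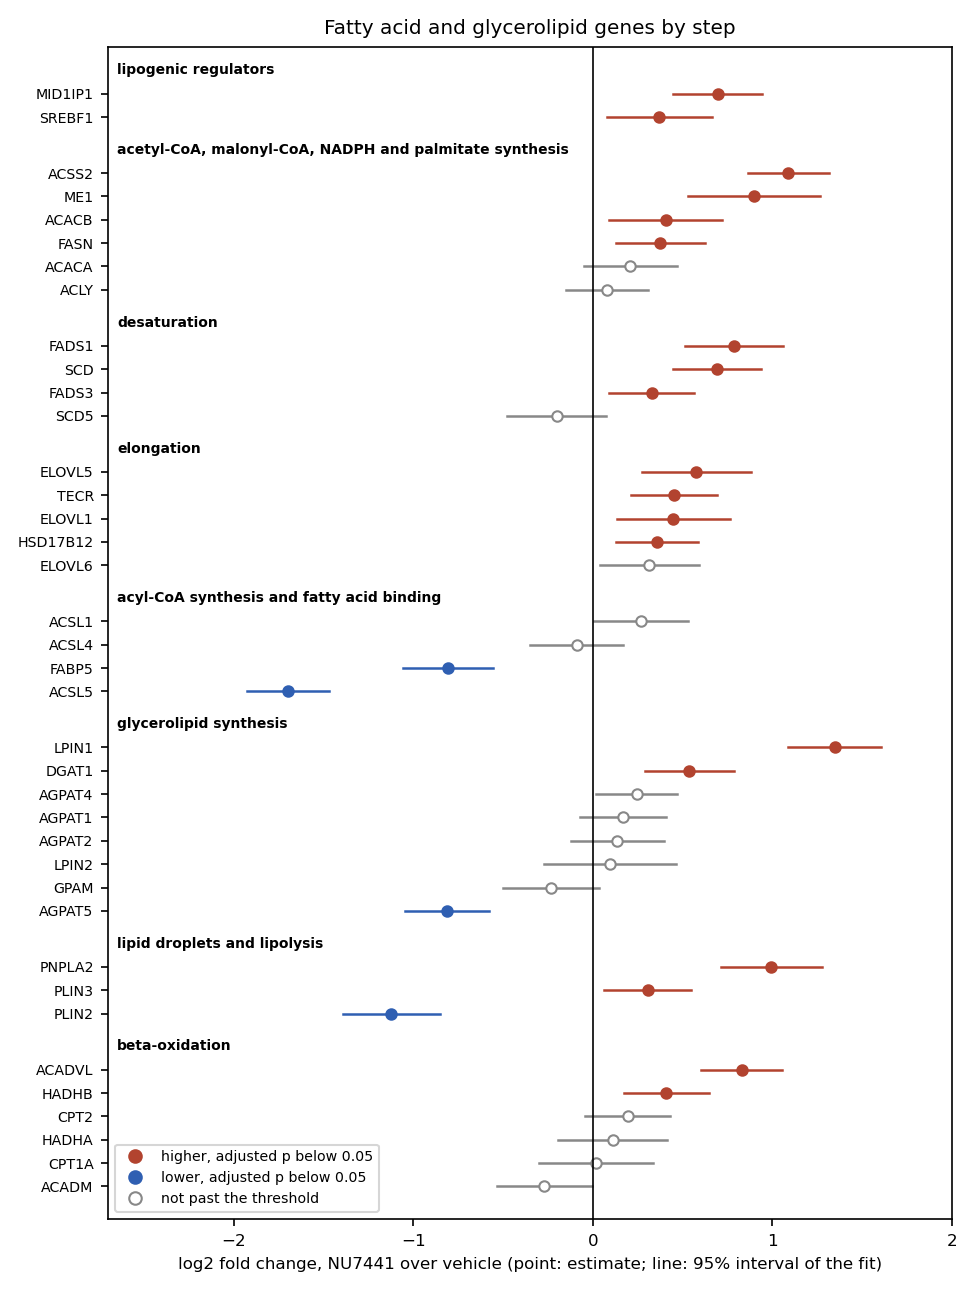
Log2 fold change of NU7441 over vehicle (x axis) for the 38 tested genes, grouped by step of the pathway, with 95% intervals of the limma fit as lines and n = 3 arrays per group. Filled red points are the 19 higher genes, filled blue points the 4 lower genes and open grey points the 15 genes not past the threshold; the lower genes lie in acyl-CoA synthesis and binding, glycerolipid synthesis and lipid droplets.

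Both regulators in the list passed the threshold as higher, as 18.7% of all genes did. The SREBF1 call was lost in 12 of 17 alternatives. MID1IP1 read 6.94, 7.12 and 7.28 on the NU7441 arrays, against 6.46, 6.39 and 6.41 on the vehicle arrays. MID1IP1 promotes the polymerisation and activity of acetyl-CoA carboxylase, and every NU7441 array was above every vehicle array. Its change was 0.70 ± 0.12 (adjusted p = 0.000267), a 1.62-fold rise, and its dimmer probe rose by 0.52 (adjusted p = 0.00335 when all kept probes were tested). SREBF1 read 6.08, 6.08 and 6.60 on the NU7441 arrays, against 5.85, 5.87 and 5.92 on the vehicle arrays. The groups did not overlap, but NU7441 replicate 3 stood well above the other arrays. SREBF1 changed by 0.37 ± 0.14 (adjusted p = 0.0431), and leaving out NU7441 replicate 3 gave a change of 0.20 (adjusted p = 0.162), with adjusted p-values of 0.109, 0.108 and 0.0823 without vehicle replicate 1, 2 and 3. Its dimmer probe was at 0.01 (adjusted p = 0.975 when all kept probes were tested), so the SREBF1 call rests on its brightest probe.

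Promoter sequence was looked at because many of the synthetic genes among the 46 are known SREBP targets. The RefSeq promoter table (GRCh38.p14) held 38 of the 46 listed genes, with 60 start sites. In the 250 bases before a start site, on both strands, the sterol-element-like motif TCACNCCAC was found at 3 of these 60 starts (ACSL1, MID1IP1 and PNPLA2) and at 0.883% of all 35116 starts in the table. The E-box CACGTG was found at 3 (ELOVL5, LPIN2 and PLIN2), against 6.34% of all starts. CCAAT was found at 22, against 32.0% of all starts. MID1IP1 is shown because it was the only changed gene of the regulator, palmitate, desaturation, acyl-CoA and glycerolipid steps with non-overlapping arrays and a match to either of the first pair of motifs. The window is chrX:38801209-38801458 on the plus strand, ending at the base before the start site, with the sterol-element-like match, here on the opposite strand, in capitals; its CCAAT match does not overlap it.
MID1IP1: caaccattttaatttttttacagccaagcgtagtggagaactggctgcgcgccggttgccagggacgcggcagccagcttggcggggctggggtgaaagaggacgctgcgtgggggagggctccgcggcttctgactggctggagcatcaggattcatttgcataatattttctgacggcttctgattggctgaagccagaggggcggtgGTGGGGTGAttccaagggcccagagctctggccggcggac
The changed genes FASN, DGAT1, FABP5, AGPAT5 and HSD17B12 have no entry in the table. Of the 18 changed genes with an entry, 2 held the sterol-element-like match, 2 the E-box and 9 CCAAT, of all 38 with an entry 3, 3 and 17 did, and no share per gene was computed for other genes. A match of letters describes the window and is not evidence of binding.

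In the supply of acetyl-CoA, malonyl-CoA and NADPH and the making of palmitate, 4 of 6 tested genes rose and 0 fell. Of all genes tested 18.7% rose and 19.7% fell. ACSS2 read 7.85, 7.83 and 7.80 on the NU7441 arrays, against 6.76, 6.72 and 6.73 on the vehicle arrays. ACSS2 makes cytosolic acetyl-CoA from acetate, and its arrays were tight and far apart. It rose by 1.09 ± 0.11 (adjusted p = 2.45e-06), or 2.13-fold, and its dimmer kept probe by 1.17. ACLY makes the same product from citrate and read 8.95, 8.90 and 8.90 on the NU7441 arrays, against 8.89, 8.75 and 8.87 on the vehicle arrays. Although its groups did not overlap, the gap was small, and ACLY was at 0.08 ± 0.11 (adjusted p = 0.573, 95% interval -0.15 to 0.31). ME1 read 7.59, 7.83 and 8.44 on the NU7441 arrays, against 7.26, 6.95 and 6.95 on the vehicle arrays. ME1, the cytosolic malic enzyme that yields NADPH, had its highest value on NU7441 replicate 3, and its groups did not overlap. ME1 rose by 0.90 ± 0.17 (adjusted p = 0.000833), the largest SE among the changed genes.

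FASN read 10.75, 10.70 and 10.44 on the NU7441 arrays, against 10.22, 10.28 and 10.27 on the vehicle arrays. FASN, fatty acid synthase, was higher on every NU7441 array, least so on replicate 3. The change was 0.38 ± 0.12 (adjusted p = 0.0184), and the adjusted p was 0.0645, 0.0509, 0.0583 and 0.0647 without vehicle replicate 1 or 3 and NU7441 replicate 1 or 2. The carboxylases that precede it were ACACA, the cytosolic form, and ACACB, the form at the outer mitochondrial membrane whose product restrains fatty acid import. ACACA read 7.83, 7.83 and 7.61 on the NU7441 arrays, against 7.41, 7.50 and 7.74 on the vehicle arrays. Its groups overlapped through vehicle replicate 3 and NU7441 replicate 3, at 0.21 ± 0.12 (adjusted p = 0.185), and its dimmer probe was at 0.27. ACACB read 5.40, 5.31 and 4.98 on the NU7441 arrays, against 4.86, 5.08 and 4.53 on the vehicle arrays. These arrays also overlapped, and ACACB rose by 0.41 ± 0.15 (adjusted p = 0.0398), with an adjusted p of 0.0767, 0.211, 0.116 and 0.111 without vehicle replicate 1 or 3 and NU7441 replicate 1 or 2. Its change was 0.26 without vehicle replicate 3.

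Among the desaturases SCD and FADS1 rose, FADS3 passed the threshold but entered the test only through the NU7441 arrays, and SCD5 did not pass it. SCD read 10.86, 10.75 and 10.74 on the NU7441 arrays, against 10.22, 9.93 and 10.12 on the vehicle arrays. SCD puts the double bond into stearate and palmitate, and its groups were separated by more than their own ranges. It rose by 0.69 ± 0.12 (adjusted p = 0.00026), or 1.62-fold. SCD5 read 6.24, 5.95 and 5.72 on the NU7441 arrays, against 6.16, 6.12 and 6.23 on the vehicle arrays. SCD5, a paralogue of SCD, overlapped between groups and was at -0.20 ± 0.13 (adjusted p = 0.235), with a 95% interval of -0.48 to 0.08. It was at -0.33 without NU7441 replicate 1 (adjusted p = 0.0453) and at -0.08 without NU7441 replicate 3 (adjusted p = 0.639). FADS1 read 6.84, 6.95 and 7.11 on the NU7441 arrays, against 5.95, 6.23 and 6.35 on the vehicle arrays. FADS1, a front-end desaturase of polyunsaturated fatty acids, did not overlap between groups and rose by 0.79 ± 0.13 (adjusted p = 0.000214). FADS3, of the same gene family, was detected on all NU7441 arrays and on 0 of 3 vehicle arrays, with 4.75, 4.62 and 4.68 on the NU7441 arrays and 4.42, 4.23 and 4.41 on the vehicle arrays. It was 1.19-fold higher as normalised, taking as vehicle level the lowest detected signal of each array, or the probe's own where that was higher. That figure leaves out the spread among arrays and depends on the background correction. The measured values gave a change of 0.33 (adjusted p = 0.0286, 95% interval 0.09 to 0.57), and 0.09 without background correction (adjusted p = 0.138). The adjusted p of FADS3 was 0.0509, 0.123, 0.0572 and 0.0721 without vehicle replicate 1, 2 or 3 and NU7441 replicate 1.

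Of 5 tested genes of the elongation cycle 4 rose and 0 fell, against 18.7% and 19.7% of all genes. ELOVL5 read 6.96, 6.59 and 7.10 on the NU7441 arrays, against 6.51, 6.10 and 6.31 on the vehicle arrays. ELOVL5, which lengthens polyunsaturated chains, rose by 0.58 ± 0.14 (adjusted p = 0.00499), its lowest NU7441 array lying just above its highest vehicle array. ELOVL1 read 5.95, 5.56 and 5.75 on the NU7441 arrays, against 5.21, 5.63 and 5.06 on the vehicle arrays. ELOVL1, which extends saturated very long chains, overlapped through vehicle replicate 2 and rose by 0.45 ± 0.15 (adjusted p = 0.025), with an adjusted p of 0.0874, 0.135 and 0.0822 without vehicle replicate 1 or 3 and NU7441 replicate 1. ELOVL6 read 7.70, 7.41 and 7.22 on the NU7441 arrays, against 7.02, 7.12 and 7.24 on the vehicle arrays. ELOVL6, the elongase from palmitate to stearate, also overlapped and was at 0.32 ± 0.13 (adjusted p = 0.0662, and 0.0156 without NU7441 replicate 3), and its dimmer probe was at 0.28. The reductases shared by all elongases both rose without overlap, where the NU7441 arrays of 24.2% of all genes lay entirely above the vehicle arrays. TECR, which does the final reduction, read 9.40, 9.14 and 9.34 on the NU7441 arrays, against 8.81, 8.85 and 8.85 on the vehicle arrays, a rise of 0.45 ± 0.11 (adjusted p = 0.00505, and 0.066 with 75th percentile scaling). HSD17B12, the ketoacyl-CoA reductase, read 9.19, 9.03 and 9.15 on the NU7441 arrays and 8.75, 8.78 and 8.76 on the vehicle arrays, a rise of 0.36 ± 0.11 (adjusted p = 0.0163). The adjusted p of HSD17B12 was 0.0551 and 0.052 without vehicle replicate 1 and 3 and 0.192 with 75th percentile scaling.

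In the activation and binding of fatty acids 2 of 4 tested genes fell and 0 rose, against 19.7% and 18.7% of all genes. ACSL5 read 4.55, 4.65 and 4.54 on the NU7441 arrays, against 6.24, 6.32 and 6.28 on the vehicle arrays. ACSL5, a long-chain acyl-CoA synthetase abundant in intestinal epithelium, showed a gap between its groups many times their ranges. It fell to 4.58 ± 0.06 in NU7441 cells, against 6.28 ± 0.04 in vehicle cells (SD, n = 3), a change of -1.70 ± 0.11 (adjusted p = 4.76e-08). On the NU7441 arrays the probe lay near background, with signals before correction of 77.1, 80.2 and 80.6, where array medians were 72.8 to 75.3. Its detection p was 0.017, 0.0078 and 0.0091 there, so the size of the fall depends on the background correction. Of the 38 genes this was the largest change as fitted, but not without background correction (-0.64, against -0.73 for FABP5) or in the authors' deposited log2 table. A dimmer ACSL5 probe was detected on 0 of 3 NU7441 arrays and 3 of 3 vehicle arrays. With the NU7441 level taken as the vehicle level was for FADS3, the fall there was 1.38-fold as normalised. Its measured values gave an adjusted p of 0.000575 when all kept probes were tested. Its paralogues gave other values. ACSL1 read 5.17, 4.76 and 4.96 on the NU7441 arrays and 4.64, 4.66 and 4.79 on the vehicle arrays, at 0.27 ± 0.12 (adjusted p = 0.0969, and 0.0431 without NU7441 replicate 2). ACSL4, which prefers arachidonate, read 6.63, 6.63 and 6.85 on the NU7441 arrays and 6.93, 6.85 and 6.60 on the vehicle arrays, at -0.09 ± 0.12 (adjusted p = 0.587). The 95% intervals of ACSL1, 0.01 to 0.53, and ACSL4, -0.35 to 0.17, lay apart from that of ACSL5, -1.93 to -1.47, and the difference between the genes was not itself tested.

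FABP5 read 9.18, 8.99 and 8.87 on the NU7441 arrays, against 9.78, 9.92 and 9.75 on the vehicle arrays. FABP5, a cytosolic fatty acid binding protein, was lower on every NU7441 array, with a change of -0.81 ± 0.12 (adjusted p = 8.63e-05), or 0.572 of the vehicle level. Its dimmer probes were at -0.40 and -0.46, with adjusted p-values of 0.0838 and 0.0117 when all kept probes were tested, so the size of the fall differed between probes.

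Of 8 tested genes of glycerolipid synthesis 2 were higher, 1 lower and 5 not past the threshold, which 38.5% of all genes passed. LPIN1 read 7.24, 7.14 and 6.87 on the NU7441 arrays, against 5.74, 5.64 and 5.82 on the vehicle arrays. LPIN1, a phosphatidate phosphatase that makes diacylglycerol, rose on all 3 NU7441 arrays, least on replicate 3. Its change of 1.35 ± 0.12 (adjusted p = 1.19e-06), or 2.55-fold, was the largest rise as fitted, while without background correction LPIN1 (0.73), ACSS2 (0.74) and ACADVL (0.74) were about equal. LPIN2, its paralogue, read 4.57, 4.89 and 5.19 on the NU7441 arrays and 5.05, 4.38 and 4.93 on the vehicle arrays and was detected on 2 of 3 vehicle arrays. These groups overlapped across nearly their whole range, at 0.09 ± 0.17 (adjusted p = 0.693, 95% interval -0.27 to 0.46). DGAT1 read 6.06, 6.32 and 6.34 on the NU7441 arrays, against 5.62, 5.73 and 5.76 on the vehicle arrays. DGAT1, which adds the last acyl chain of triacylglycerol, did not overlap and rose by 0.54 ± 0.12 (adjusted p = 0.00203).

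Of the 5 tested acyltransferases that act before LPIN1, 1 fell and 4 did not pass the threshold, which 38.5% of all genes passed. AGPAT5 read 6.30, 6.24 and 6.09 on the NU7441 arrays, against 7.00, 7.06 and 7.02 on the vehicle arrays. AGPAT5, of the lysophosphatidate acyltransferase family, fell on every NU7441 array, by a change of -0.81 ± 0.11 (adjusted p = 4.57e-05). AGPAT1, AGPAT2 and AGPAT4 were at 0.17, 0.14 and 0.25 (adjusted p = 0.247, 0.395 and 0.0785). Of these, AGPAT4 was detected on 3 of 3 NU7441 arrays and 0 of 3 vehicle arrays. With the vehicle level taken as for FADS3 it was 1.14-fold higher as normalised, a figure that leaves out the spread among arrays. The NU7441 arrays of AGPAT1 and AGPAT4 lay above the vehicle arrays. GPAM, the mitochondrial enzyme that begins glycerolipid synthesis, read 5.42, 5.75 and 5.87 on the NU7441 arrays and 5.87, 5.88 and 5.99 on the vehicle arrays. Its brightest probe was at -0.23 ± 0.13 (adjusted p = 0.157, and 0.0488 without NU7441 replicate 3), and its dimmer probe at -0.40 (adjusted p = 0.0137 when all kept probes were tested).

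Of 3 tested genes of the lipid droplet, the coat gene PLIN2 fell, while the coat gene PLIN3 and the lipase gene PNPLA2 rose. Over all genes 19.7% fell and 18.7% rose. PLIN2 read 5.92, 5.69 and 5.73 on the NU7441 arrays, against 7.13, 6.71 and 6.88 on the vehicle arrays. PLIN2, the widespread coat protein of lipid droplets, was lower on every NU7441 array, with a change of -1.12 ± 0.13 (adjusted p = 9.04e-06), and its dimmer probe was at -0.71 (adjusted p = 0.00102 when all kept probes were tested). PNPLA2 read 5.54, 5.70 and 6.07 on the NU7441 arrays, against 4.77, 4.79 and 4.76 on the vehicle arrays. PNPLA2 encodes adipose triglyceride lipase, which releases the first fatty acid from stored triacylglycerol, and its vehicle arrays were nearly equal while the NU7441 arrays spread widely above them. It rose by 0.99 ± 0.13 (adjusted p = 3.94e-05), or 1.99-fold. PLIN3 read 10.72, 10.78 and 10.54 on the NU7441 arrays, against 10.33, 10.31 and 10.47 on the vehicle arrays. PLIN3, a coat protein that also lives in the cytosol, rose by 0.31 ± 0.11 (adjusted p = 0.0451) with a narrow gap between the groups. Its adjusted p was 0.132, 0.135 and 0.0574 without vehicle replicate 1, 2 and 3, 0.0888 and 0.146 without NU7441 replicate 1 and 2, and 0.0616 with 75th percentile scaling.

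The promoters of PNPLA2 and PLIN2 are shown because these genes of the same organelle moved apart and each holds a different match; they were chosen after the search. The windows, from RefSeq on GRCh38.p14, are the 250 bases before the start site at chr11:818664-818913 (plus strand) and chr9:19127493-19127742 (minus strand). Capitals mark the sterol-element-like match in PNPLA2, on the opposite strand, and the E-box in PLIN2.
PNPLA2: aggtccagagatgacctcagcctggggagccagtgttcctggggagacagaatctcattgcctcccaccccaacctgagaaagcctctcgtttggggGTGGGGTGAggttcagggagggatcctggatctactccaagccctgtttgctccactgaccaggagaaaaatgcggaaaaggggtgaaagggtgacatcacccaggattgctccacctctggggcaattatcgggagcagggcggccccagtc
PLIN2: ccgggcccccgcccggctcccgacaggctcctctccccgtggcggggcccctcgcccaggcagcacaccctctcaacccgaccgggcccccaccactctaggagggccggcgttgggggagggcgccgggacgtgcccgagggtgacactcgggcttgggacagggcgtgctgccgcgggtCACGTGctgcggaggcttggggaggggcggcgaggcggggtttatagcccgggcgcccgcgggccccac
Neither window holds a CCAAT match, and neither holds the motif marked in the other. Of the other listed genes with a sterol-element-like match, MID1IP1 rose and ACSL1 did not pass the threshold. Of those with an E-box, ELOVL5 rose and LPIN2 did not pass it. A link between match and direction was not tested.

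**Figure D2:**
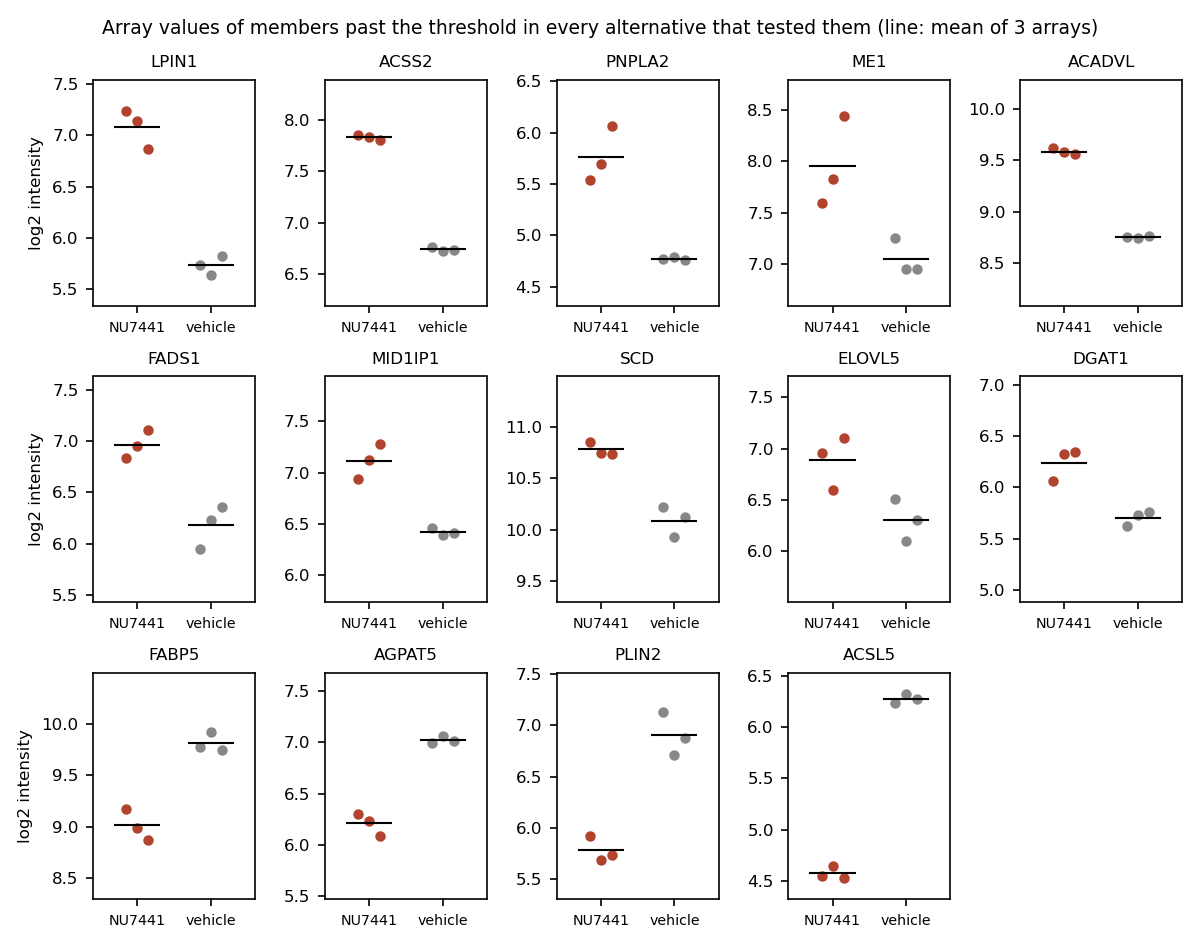
Normalised log2 intensity (y axis, panels of equal span) on the 3 NU7441 arrays (red, left) and the 3 vehicle arrays (grey, right) for the 14 genes past the threshold in every alternative that tested them; black lines are group means. In each of the 14 panels the groups do not overlap, which choosing genes by their calls favours. The groups did not overlap in 49.9% of all genes tested. ME1 and PNPLA2 show the widest spread among NU7441 arrays.

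In mitochondrial beta-oxidation 2 of 6 tested genes rose and 0 fell, where 38.5% of all genes passed the threshold. ACADVL read 9.62, 9.58 and 9.56 on the NU7441 arrays, against 8.75, 8.75 and 8.77 on the vehicle arrays. ACADVL, the dehydrogenase of very long chains, was among the tightest genes of the list, and it rose by 0.83 ± 0.11 (adjusted p = 2.72e-05), or 1.78-fold. Its dimmer probes rose by 0.69 and 0.40. ACADM, the dehydrogenase of medium chains, read 7.62, 7.50 and 7.33 on the NU7441 arrays and 7.91, 7.77 and 7.57 on the vehicle arrays. The groups overlapped, at -0.27 ± 0.12 (adjusted p = 0.0982), and with 75th percentile scaling ACADM was at -0.43 (adjusted p = 0.0128). CPT1A, the carnitine transferase that controls entry of fatty acids into mitochondria, read 5.02, 5.42 and 5.58 on the NU7441 arrays and 5.08, 5.35 and 5.53 on the vehicle arrays, at 0.02 ± 0.15 (adjusted p = 0.935). The arrays of CPT1A were interleaved, and the 95% interval was -0.30 to 0.34. CPT2, its partner at the inner membrane, was at 0.19 ± 0.11 (adjusted p = 0.18) with the NU7441 arrays just above the vehicle arrays.

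HADHA and HADHB encode the subunits of the mitochondrial trifunctional protein and are transcribed in opposite directions from starts 307 bases apart on chromosome 2 in the RefSeq table. HADHB read 6.42, 6.36 and 6.42 on the NU7441 arrays, against 6.02, 6.08 and 5.87 on the vehicle arrays. HADHB did not overlap and rose by 0.41 ± 0.11 (adjusted p = 0.00835, and 0.0517 without vehicle replicate 3). HADHA read 6.01, 5.56 and 5.58 on the NU7441 arrays, against 5.81, 5.38 and 5.63 on the vehicle arrays. HADHA overlapped and was at 0.11 ± 0.14 (adjusted p = 0.567). The interval of HADHA, -0.20 to 0.41, overlapped that of HADHB, 0.18 to 0.64, and the difference between them was not tested. Most of the stretch between the starts, also chosen after the search, is shown because both genes face away from it (RefSeq, GRCh38.p14, chr2:26244689-26244938, plus strand, ending at the base before the HADHB start). It holds none of the 3 motifs searched and so no capitals.
HADHB: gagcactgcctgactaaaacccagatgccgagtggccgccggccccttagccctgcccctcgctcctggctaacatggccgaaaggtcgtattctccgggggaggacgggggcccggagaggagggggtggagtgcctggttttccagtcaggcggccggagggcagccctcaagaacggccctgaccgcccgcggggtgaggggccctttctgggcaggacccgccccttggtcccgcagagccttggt

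Where several kept probes measured a gene they had the same sign. This was so for all 14 genes with more than 1 kept probe, while 24 genes rested on a single probe. A shared sign says little where a probe is close to 0, as the dimmer SREBF1 probe was at 0.01. Sizes differed between the probes of PLIN2, FABP5, ACADVL and SREBF1, as given above, while the dimmer ACSL5 probe gives no firm size.

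**Figure D3:**
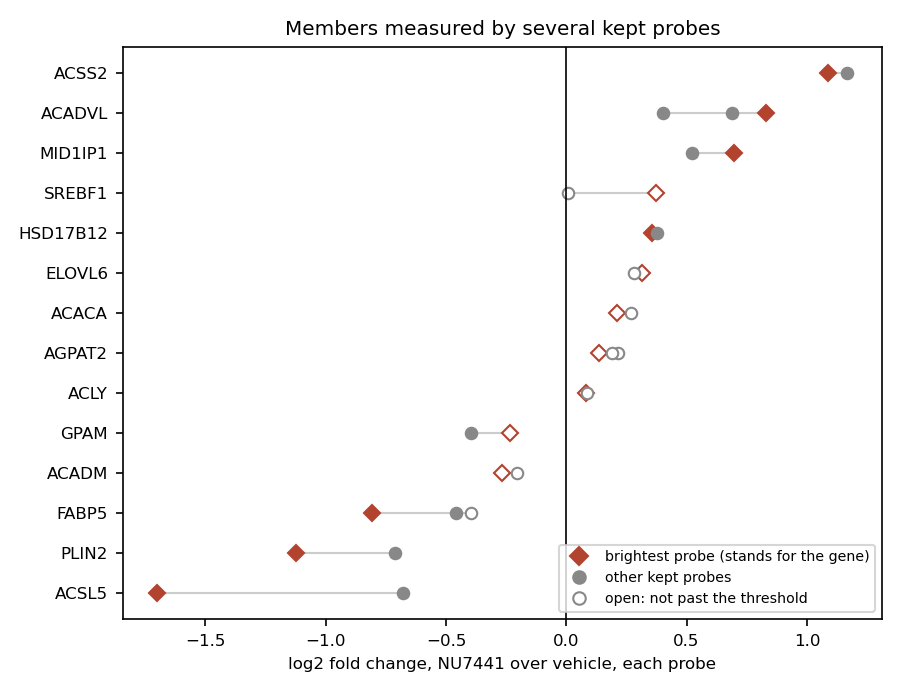
Log2 fold change of NU7441 over vehicle (x axis) of each kept probe of the 14 genes with several kept probes, fitted over all kept probes. Red diamonds are the brightest probes, which stand for their genes, grey circles the others, and open symbols are not past the threshold in that fit. All probes of a gene lie on the same side of 0, the dimmer SREBF1 probe barely so at 0.01. The dimmer ACSL5 probe, not detected on any NU7441 array, gives no firm size.

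Lipid genes outside the 46 were read from lists covering 131 further genes, of which 84 were tested. These lists too were chosen with earlier results of these data known. Of these 20 were higher and 12 lower, with a median of 0.06, against 18.7% higher and 19.7% lower over all genes. With 75th percentile scaling 22 were lower, where 24% of all genes were lower under that scaling. Among regulators of lipogenic transcription 5 of 12 were higher and 1 lower. INSIG1, which holds SREBPs in the endoplasmic reticulum, was at 1.51 ± 0.11 (adjusted p = 1.56e-07). As the mean of its kept probes INSIG1 was at 1.02, and without background correction also at 1.02. MLXIPL, the carbohydrate-responsive activator ChREBP, was at 0.65 ± 0.18 (adjusted p = 0.00938). NR1H3, the oxysterol receptor LXR-alpha, was at 0.55 and PPARG, a nuclear receptor of lipid storage, at -0.58. The list that supplies NADPH, citrate and carnitine carriers had 3 higher and 1 lower of 5. SLC25A1, which exports mitochondrial citrate for lipogenesis, was at 1.09 ± 0.11 (adjusted p = 4.32e-06). PGD and IDH1, which both yield cytosolic NADPH, were at 0.72 and 0.69, and the mitochondrial malic enzyme ME2 was at -0.39 (adjusted p = 0.084 without vehicle replicate 2).

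Other genes of elongation, activation and transport had 4 higher and 3 lower of 17, against 18.7% higher and 19.7% lower over all genes. FABP6, an ileal bile acid binding protein, was detected on 1 of 3 NU7441 arrays and 3 of 3 vehicle arrays and was lower (adjusted p = 3.53e-05), by an amount that depends on the background correction, at -0.85 as fitted and -0.25 without correction. Of the fatty acid transport protein family, SLC27A2 and SLC27A5 were at -0.80 and -0.60 while SLC27A1 was at 0.65, all past the threshold. The other beta-oxidation genes had 2 higher and 2 lower of 18, where 38.5% of all genes passed the threshold. HADH, a short-chain hydroxyacyl-CoA dehydrogenase, and ACAA2, the mitochondrial thiolase, were at -0.74 and -0.45, and the adjusted p of ACAA2 was 0.05 without vehicle replicate 1 and 0.051 without NU7441 replicate 2. ACAA1, the peroxisomal thiolase, and ACAD10 were at 0.55 and 0.40, ACAD10 with an adjusted p of 0.119 without vehicle replicate 3 and 0.0642 without NU7441 replicate 1.

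Phospholipid synthesis had 4 higher and 4 lower of 24, against 18.7% higher and 19.7% lower over all genes. CDS2, which makes CDP-diacylglycerol, and CDIPT, which makes phosphatidylinositol from it, were at 0.72 and 0.51, with CDIPT at 0.33 (adjusted p = 0.092) without vehicle replicate 1. MBOAT7, an acyltransferase of lysophosphatidylinositol, was at 0.43, and PEMT, which methylates phosphatidylethanolamine to phosphatidylcholine, at -0.55. Among other triacylglycerol and droplet genes 2 were higher and 1 lower of 8. The droplet coat gene PLIN5 was at 0.51 and the phospholipase gene PNPLA8 at 0.61, the second with an adjusted p of 0.0516 without vehicle replicate 2. HILPDA, a hypoxia-inducible inhibitor of adipose triglyceride lipase, was at -0.58 ± 0.12 (adjusted p = 0.00158). Of the 23 related genes named, 17 held in every alternative that tested them. MLXIPL was not past the threshold with no detection filter, and ACAD10 and PNPLA8 were not without background correction.

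**Figure D4:**
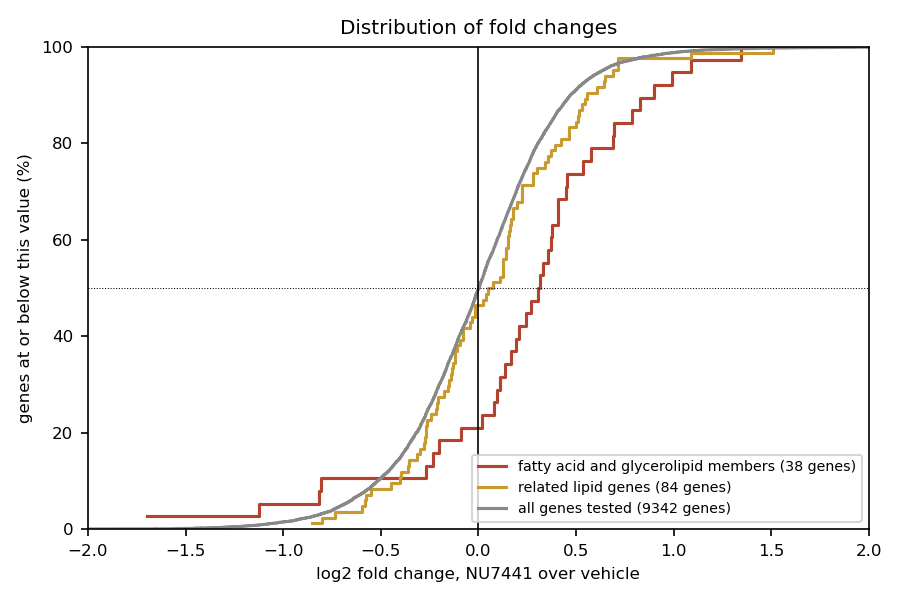
Cumulative share of genes (y axis, %) at or below a given log2 fold change of NU7441 over vehicle (x axis, shown from -2 to 2) for the 38 tested fatty acid and glycerolipid genes (red), 84 related lipid genes (ochre) and all 9342 genes tested (grey). The red curve crosses 50% at 0.31, the ochre curve at 0.06 and the grey curve at 0.00.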

How the data were processed

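Total RNA of 3 NU7441 and 3 vehicle samples was measured on Illumina bead arrays, with biotinylated cRNA per the labels' protocols. GenomeStudio, lumi and R 3.0.2 are named in the submitters' processing notes, with no settings stated. For each array the authors deposited linear intensity values, not normalised between arrays, beside detection p-values, per the file headers. A deposited log2 table by the authors differed from the quantile-normalised log2 signals by at most 0.0612, held 1 probe fewer, was not centred (each column's median was 6.22) and was used as an alternative.

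The intensities were background corrected by normexp with limma 3.58.1 in R 4.3.3 (negative controls inferred from detection p, offset 16), quantile normalised and put on the log2 scale. The 14973 of 47323 probes with detection p below 0.05 on all arrays of a group were kept, and the brightest named probe stood for each of 9342 genes. GEO's platform annotation gave 1 symbol to 30112 probes, several to 8 and none to 17203, and 0 symbols needed an update. A symbol without a probe is unnamed here, not missing from the cells. limma's lmFit and eBayes had group as the only term, and the procedure was tested on simulated data. The members and lists were chosen with earlier results of these data known. Every member is accounted for, and up to 4 changed genes of each related list are named, those with the largest change. Alternatives were other background corrections, scalings, filters, probe rules, variance models and thresholds, array weights, a replicate block and leaving out each array, with probes kept as in the full set. The slide was not used as a block because the files do not give it. Figures used Python 3.11.15 and matplotlib 3.10.9.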

Additional observations from a re-analysis of the deposited data

How the results depend on the processing

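Across 17 alternatives 14 of the 23 changed genes were past the threshold wherever they were tested, and 0 reversed. SREBF1 lost its call in 12 alternatives, ACACB and PLIN3 in 9 each, FADS3 in 8, ELOVL1 in 7, FASN in 5, HSD17B12 in 4, and HADHB and TECR in 1 each. Of the genes not past the threshold, 6 passed in at least 1 alternative. The number of higher genes lay between 11 and 20 and that of lower genes between 3 and 5. Over all genes the higher share lay between 7.27% and 21.7% and the lower share between 8.01% and 24%. With each array left out in turn the higher genes numbered 11 to 19, the lower genes 4 to 5, the median change was 0.27 to 0.34, the related genes higher numbered 18 to 21 and the related genes lower 8 to 16. At an adjusted p below 0.01, 12 genes were higher, and 11.3% of all genes were. The median change was 0.14 without background correction, 0.19 with an offset of 50, 0.16 in the authors' log2 table and 0.25 with no detection filter. With 75th percentile scaling 22 related genes were lower, where 24% of all genes were lower under that scaling. The replicate block, whose numbers do not pair the arrays (deviations of same-numbered arrays correlated at -0.102, 0.035 and -0.07), gave 18 higher and 4 lower genes, with a median of 0.31, and 20 and 11 of the related genes. PLIN3 lost its call under it. For these changes the cause was not tested. Probes near background, such as those of FADS3 and AGPAT4 and those of ACSL5 on the NU7441 arrays, give no firm size. Another 5 listed genes were too dim to test.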
